A study of Mus musculus with 12 samples.

Results

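The RAS-RAF-MEK-ERK cascade was followed in KPC cells through 7 of its genes, Nras, Hras, Braf, Araf, Map2k1, Map2k2 and Mapk3, found by the gene symbol given with each transcript. They are 7 of the 15803 genes with a read in at least 1 library, and all 7 were listed in each of the 12 libraries. KPC cells are a mouse pancreatic ductal adenocarcinoma (PDAC) line from tumors in which Pdx1-Cre, active in the pancreatic lineage, switches on a mutant RAS oncogene and a mutant Trp53 allele, and every group shares this genotype. Cells received 20 μM cisplatin (Cis), a platinum drug that damages DNA, for 6 or 21 h, or no drug, and were lysed with cycloheximide (CHX), which holds ribosomes in place. The labels call the control cells untreated and the methods give PBS, whose duration is not labelled. They are called PBS here, and both time points were compared with them. Each group had 2 ribosome profiling libraries and 2 RNA-seq libraries, and the labels do not say whether the 2 came from separate cultures. The methods state only in general terms that experiments were repeated or used independent samples, so the p-values measure the spread between these libraries, which may be technical.

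RAS proteins are small GTPases that sit at the inner face of the plasma membrane and switch on when exchange factors downstream of receptor tyrosine kinases load them with GTP. GTP-bound RAS recruits RAF kinases, RAF phosphorylates the MEK kinases (Map2k1 encodes MEK1 and Map2k2 encodes MEK2), and MEK phosphorylates the ERK kinases (Mapk3 encodes ERK1), which act on transcription factors and other kinases. Mutation of a RAS gene is the most common lesion of PDAC, and much of the control of the cascade lies in phosphorylation and GTP loading, which neither assay measures.

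Ribosome profiling sequences the mRNA fragments that ribosomes protect from RNase (footprints). The footprints on a coding sequence thus report how densely ribosomes occupied it, not how fast they moved. Values are RPKM, which are reads per kilobase of coding sequence (footprints) or transcript (RNA-seq), relative to the depth of the library. They are therefore levels relative to the rest of the library, and a change in total protein synthesis is not visible in them. Footprint libraries held 4661014 to 5204127 reads with PBS, 3375480 to 4691825 at 6 h and 3492790 to 3686336 at 21 h. RNA-seq libraries held 1985344 to 2901692, and Lars2, Tmem38b and Mettl26 took 51.8% to 56.6% of these, which lowers the RNA RPKM of every other gene. Of 9 ductal epithelial markers, Krt8, Krt18 and Krt19 were the highest in footprints, while Cldn4, Muc1 and Epcam were near absent (medians of 0, 0.452 and 1.02 RPKM over the libraries). Summed footprints of the 9 were at 9113 to 9795 RPKM with PBS, 9314 to 9372 at 6 h and 6728 to 6861 at 21 h. Summed leukocyte markers were at 1.63 to 2.35 RPKM with PBS and 3.12 to 6.14 at 21 h, with Cd3e and Itgam at 0. Cd68 was the highest of them in footprints, with a median of 2.13 RPKM over the libraries. Ptprc, Adgre1 and Csf1r reached at most 0.229, 0.318 and 0.740 RPKM in any footprint library. Whether the higher leukocyte sum at 21 h reflects more leukocytes was not tested. Fibroblast, endothelial and acinar markers summed to at most 4.18, 0.666 and 7.59 RPKM in any footprint library. In bulk lysates a change in the number of cells that carry an mRNA and a change in its amount per cell cannot be told apart.

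In PBS cells the 7 mRNAs differed widely in their footprint levels. Footprint levels, per length of coding sequence, ran from 154 ± 5.61 RPKM for Map2k1 (SD, n = 2) through Nras, Hras, Map2k2, Mapk3 and Araf to 5.37 ± 0.176 RPKM for Braf (SD, n = 2), a span of 28.7-fold, and no neighbors in this order overlapped. RNA levels with PBS spanned 13.3-fold, from 30.9 ± 2.91 RPKM for Map2k1 (SD, n = 2) to 2.33 ± 0.839 for Braf (SD, n = 2). There the order was Map2k1, Nras, Map2k2, Mapk3, Hras, Araf and Braf, and Map2k1 and Nras overlapped. The RAF kinases were the least abundant of the cascade in both assays, and the RAS and MEK mRNAs had the most footprints per length. At 6 h Hras moved to the top of the footprint order, above Map2k1 and Nras, which overlapped. At 21 h Nras and Map2k1 led with overlapping values, followed by Hras. The coding sequences behind these values are short for the RAS GTPases (567 nucleotides for Nras and for Hras) and longest for Braf (2412 nucleotides), whose transcript carries 7148 further nucleotides after the coding sequence.

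**Figure D1:**
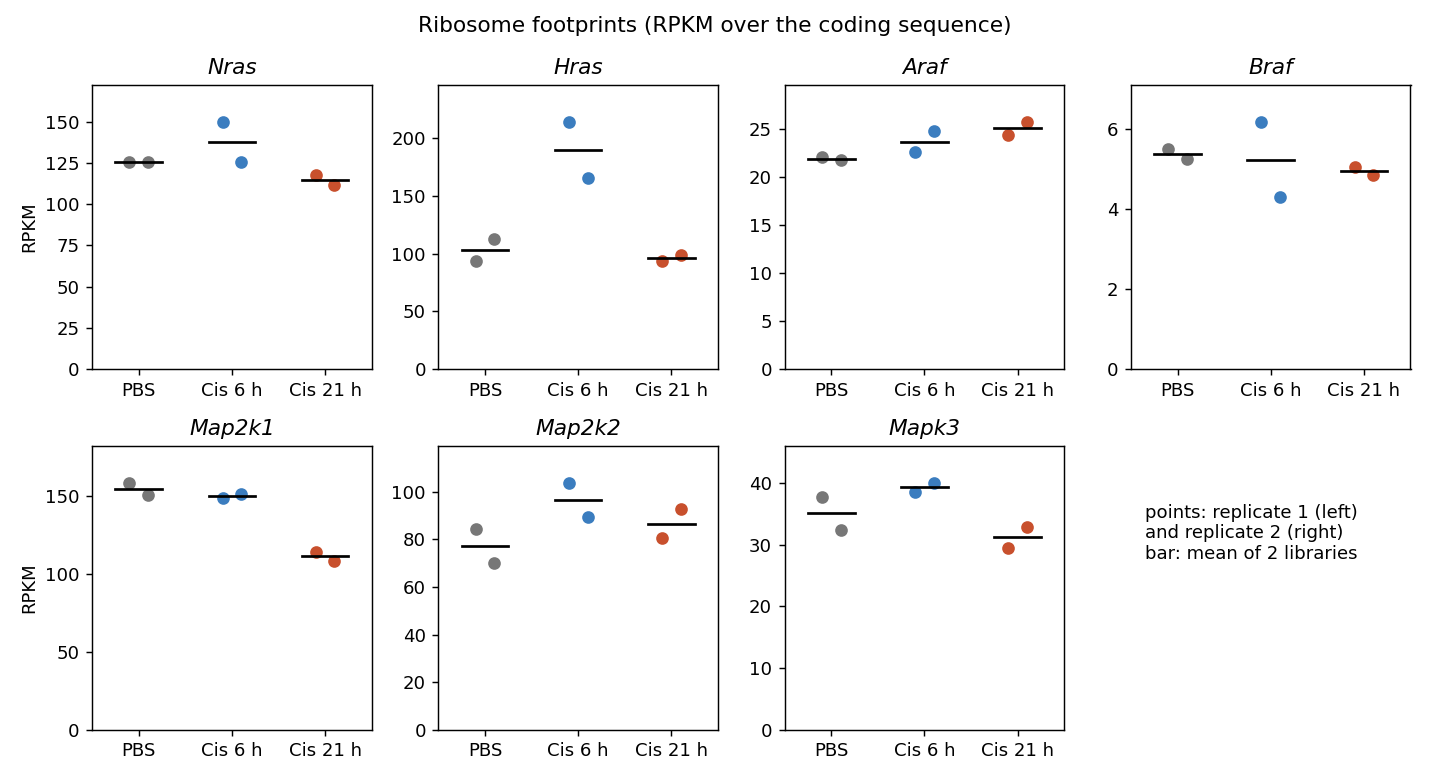
Footprint level of each cascade gene in the 6 footprint libraries, in RPKM over the coding sequence on a linear axis from 0 of its own for each gene, grouped by PBS, 6 h and 21 h of Cis; each point is a library and each bar the mean of 2. Both 6 h libraries of Hras (214 and 166 RPKM) lie above its other 4 libraries, and both 21 h libraries of Map2k1 (114 and 108 RPKM) lie below its other 4.

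Of the RAS GTPases, Hras was the cascade gene whose footprints rose at 6 h. Its footprints were at 93.5 and 113 RPKM with PBS (276 and 298 reads), 214 and 166 RPKM at 6 h (570 and 317 reads) and 93.3 and 98.5 RPKM at 21 h (195 reads in each library). Both 6 h libraries lay above every PBS and 21 h library, while the PBS and 21 h values were close together and the 2 libraries at 6 h were themselves far apart. The change at 6 h was 0.86 on the log2(RPKM + 0.5) scale (SE 0.14, 95% interval 0.53 to 1.19), with an adjusted p of 0.0327 by limma with Benjamini-Hochberg adjustment over all mRNAs tested. Hras was the 1 cascade gene of 7 called at 6 h, where 2.04% of all mRNAs were called and 1.05% were called higher. Its footprints then dropped by 0.99 on this scale between 6 h and 21 h (SE 0.14), with an adjusted p of 0.00173, and at 21 h they differed from PBS by -0.14 (SE 0.14, adjusted p = 0.485). These comparisons share libraries, so they are not independent of each other. The call at 6 h rested on few libraries. The adjusted p was 0.128 without PBS replicate 1, 0.0676 without PBS replicate 2, 0.168 without 6 h replicate 1 and 0.0917 without 6 h replicate 2, with log2 changes of 0.67 to 1.04. It was 0.0810 by limma without the filter on low values and 0.110 without the trend.

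Hras RNA did not follow. It was at 16.1 and 19.4 RPKM with PBS (112 and 159 reads), 17.3 and 18.4 at 6 h, and 14.0 and 14.7 at 21 h (92 and 87 reads). The 6 h values lay inside the PBS range, and both 21 h values lay below the other 4. On the log2 scale Hras RNA differed from PBS by 0.08 at 6 h (SE 0.15, adjusted p = 0.866) and by -0.37 at 21 h (SE 0.15, adjusted p = 0.0925), and neither passed the threshold. Footprints per RNA (translational efficiency, TE) were 5.81 and 5.82 with PBS, 12.4 and 9.01 at 6 h, and 6.68 and 6.69 at 21 h, each a ratio of RPKM values with the same replicate number. Both 6 h ratios were above the other 4. In the model over all 12 libraries the TE change at 6 h was 0.78 on the log2 scale (SE 0.21, 95% interval 0.33 to 1.23), with an unadjusted p of 0.00258 and an adjusted p of 0.312, so it did not pass over all mRNAs tested.

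Nras, the other RAS GTPase followed, showed no change past the threshold. Its footprints were at 125 and 126 RPKM with PBS, 150 and 126 at 6 h, and 118 and 112 at 21 h (221 to 399 reads per library). The 21 h libraries were the lowest of the 6, and the 6 h libraries differed from each other more than the PBS libraries did. The change against PBS was 0.12 at 6 h (95% interval -0.12 to 0.35) and -0.17 at 21 h (95% interval -0.40 to 0.07). Neither passed the threshold (adjusted p = 0.560 and 0.235, limma). From 6 h to 21 h the difference was -0.28 (SE 0.10, 95% interval -0.52 to -0.05), with an unadjusted p of 0.0247 and an adjusted p of 0.0704 by limma. With quantile normalization it was -0.36 and passed (adjusted p = 0.0347). Nras RNA stayed within 27.4 to 29.1 RPKM in all 6 libraries, the narrowest range of the 7 genes in proportion to its level. RefSeq lists a pseudogene, Nras-ps2, and how reads that fit more than 1 place were counted is not given in the sources used here.

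The RAF kinases, which carry the signal from RAS to MEK, had low footprint levels and showed no change past the threshold. Araf footprints were at 22.1 and 21.8 RPKM with PBS, 22.6 and 24.9 at 6 h, and 24.4 and 25.8 at 21 h (152 to 208 reads). The treated libraries all lay above the PBS libraries, by small steps. The change was 0.10 at 6 h (95% interval -0.19 to 0.38) and 0.15 at 21 h (95% interval -0.13 to 0.44). Araf RNA was at 5.68 and 5.12 RPKM with PBS, 7.90 and 6.43 at 6 h, and 10.01 and 5.48 at 21 h, from 27 to 55 reads, so the 2 libraries at 21 h differed from each other more than the group means did. Braf footprints were at 5.50 and 5.25 RPKM with PBS, 6.19 and 4.30 at 6 h, and 5.06 and 4.87 at 21 h. The 6 h libraries lay on either side of all others. Braf rested on 35 to 70 reads per footprint library and 37 to 70 per RNA library, and its changes had SEs of 0.23 in footprints and 0.32 in RNA, so a difference as large as that of Map2k1 at 21 h lay within the 95% interval for Braf (-0.66 to 0.39 in footprints at 21 h). Braf RNA was at 2.92 and 1.74 RPKM with PBS, 2.33 and 1.65 at 6 h, and 1.72 and 2.07 at 21 h, with overlapping groups. Araf overlaps Syn1 and non-coding genes in RefSeq, whose levels here were at most 1.11 RPKM in footprints and 0.759 in RNA.

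Of the MEK kinases, Map2k1 had fewer footprints at 21 h. Its footprints were at 158 and 150 RPKM with PBS (972 and 827 reads), 149 and 151 at 6 h (823 and 602 reads), and 114 and 108 at 21 h (496 and 446 reads). PBS and 6 h overlapped, and both 21 h libraries were below all 4 of the others. The change against PBS at 21 h was -0.51 on the log2 scale (SE 0.08, 95% interval -0.70 to -0.32, adjusted p = 0.00182, limma with Benjamini-Hochberg adjustment). Map2k1 was the 1 cascade gene of 7 called in this comparison, in which 39.1% of all mRNAs were called and 20.2% were called lower, so a call was common here and the Map2k1 change stood at percentile 20.4 of all changes. From 6 h to 21 h it fell by 0.45 (SE 0.08, adjusted p = 0.00483). Both calls held under all 10 alternatives and without each library in turn. At 6 h the difference from PBS was -0.06 (95% interval -0.25 to 0.13). The summed ductal markers were also lower in footprints at 21 h, and their part in the Map2k1 result was not tested.

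Map2k1 RNA was at 28.8 and 33.0 RPKM with PBS, 22.1 and 29.5 at 6 h, and 26.8 and 24.4 at 21 h. Both 21 h libraries lay below both PBS libraries, while the 6 h values spanned the 21 h range. The RNA change was -0.35 at 21 h (SE 0.16, adjusted p = 0.140), and the TE change was -0.16 (95% interval -0.57 to 0.25, adjusted p = 0.779), so neither the RNA nor the TE of Map2k1 passed the threshold.

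Map2k2, which encodes the second MEK kinase, did not fall with Map2k1. Its footprints were at 84.3 and 70.3 RPKM with PBS, 104 and 89.4 at 6 h, and 80.7 and 92.6 at 21 h (358 to 586 reads). Both 6 h libraries were above both PBS libraries, and the 21 h libraries overlapped the others. The change was 0.31 at 6 h (SE 0.13, unadjusted p = 0.0380, adjusted p = 0.207) and 0.13 at 21 h (95% interval -0.16 to 0.42, adjusted p = 0.440). Map2k2 RNA ran from 21.2 to 25.0 RPKM over the 6 libraries with no group apart.

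Mapk3, the ERK kinase at the end of the cascade, was at 37.8 and 32.4 RPKM in footprints with PBS, 38.5 and 40.0 at 6 h, and 29.5 and 32.9 at 21 h (124 to 224 reads). The 6 h libraries were the highest, and the 21 h libraries overlapped PBS. From 6 h to 21 h the difference was -0.35 (SE 0.12, unadjusted p = 0.0201), with an adjusted p of 0.0605. Against PBS it was 0.15 at 6 h and -0.20 at 21 h (adjusted p = 0.522 and 0.230). Its RNA was at 22.3 and 20.9 RPKM with PBS, 22.4 and 19.0 at 6 h, and 21.9 and 21.3 at 21 h, with the groups overlapping. Mapk3 had the lowest TE of the 7 genes with PBS, at 1.69 and 1.55, below the 5.49 and 4.57 of Map2k1.

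**Figure D2:**
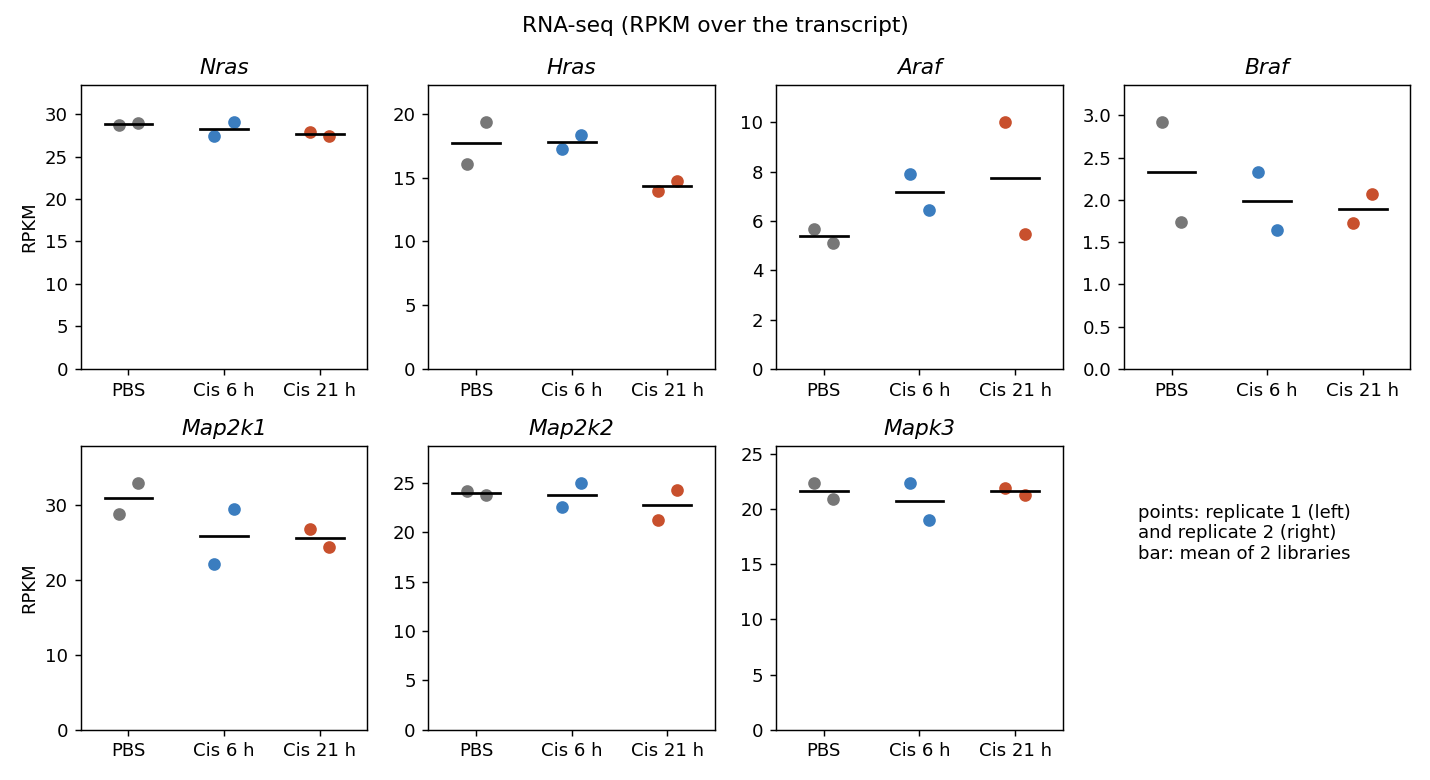
RNA level of the same genes in the 6 RNA-seq libraries, in RPKM over the transcript on a linear axis from 0 of its own for each gene, with points for libraries and bars for the mean of 2. The groups lie close together for most genes, and the 2 Araf libraries at 21 h (10.01 and 5.48 RPKM) are the most divergent.

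Across the cascade, most footprint changes against PBS did not pass the threshold. At 6 h 1 of 7 was called higher (Hras) and none lower, 5 of 7 changes were above 0, and the median change was 0.12 against -0.01 over all 10383 mRNAs tested. At 21 h 1 of 7 was called lower (Map2k1), 2 of 7 changes were above 0, and the median was -0.14 against 0.01 over all. Between 6 h and 21 h 2 of 7 were called lower (Hras and Map2k1), where 30.7% of all mRNAs were called and 15.7% lower, and the median was -0.28 against -0.00381 over all. Araf was the 1 gene of 7 with a change above 0 in that comparison (0.06, adjusted p = 0.759). The 3 comparisons share libraries with each other.

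In RNA, 0 of 7 were called in any comparison by limma. At 6 h 0 of all 9443 mRNAs were called (0%), 1086 had an unadjusted p under 0.05, none of them in the cascade, and voom on the recovered reads called 229 mRNAs and 0 of the 7. At 21 h 23.8% of all mRNAs were called. Hras alone of the 7 had an unadjusted p under 0.05 there (adjusted p = 0.0925), and 3491 of all 9443 mRNAs had one. Voom called 3004 of all 9443 mRNAs and 1 of the 7, Map2k1 (adjusted p = 0.0413). Between 6 h and 21 h 15.7% were called by limma, and voom called 2012 of all 9443 and 1 of the 7 (Hras, adjusted p = 0.0452). All 7 changes by limma were below 0, with a median of -0.17 against 0.01 over all. That sign depended on the scaling, as the RNA changes of Araf and Mapk3 between 6 h and 21 h were both 0.06 on the RPKM as deposited.

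For TE, 0 of 7 were called in any comparison by limma or by voom, where 0%, 0.409% and 1.01% of 9295 mRNAs were called by limma at 6 h, at 21 h and between them. The TE of Hras had an unadjusted p under 0.05 at 6 h and between 6 h and 21 h (change -0.54, adjusted p = 0.267). Over all 9295 mRNAs, 710 and 1263 had one in these comparisons. Median TE changes of the 7 were 0.14 at 6 h and -0.02 at 21 h, against -0.01 and -0.04 over all. The intervals were wide. At 21 h they ran from -0.92 to 0.53 for Araf and from -0.70 to 0.98 for Braf.

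**Figure D3:**
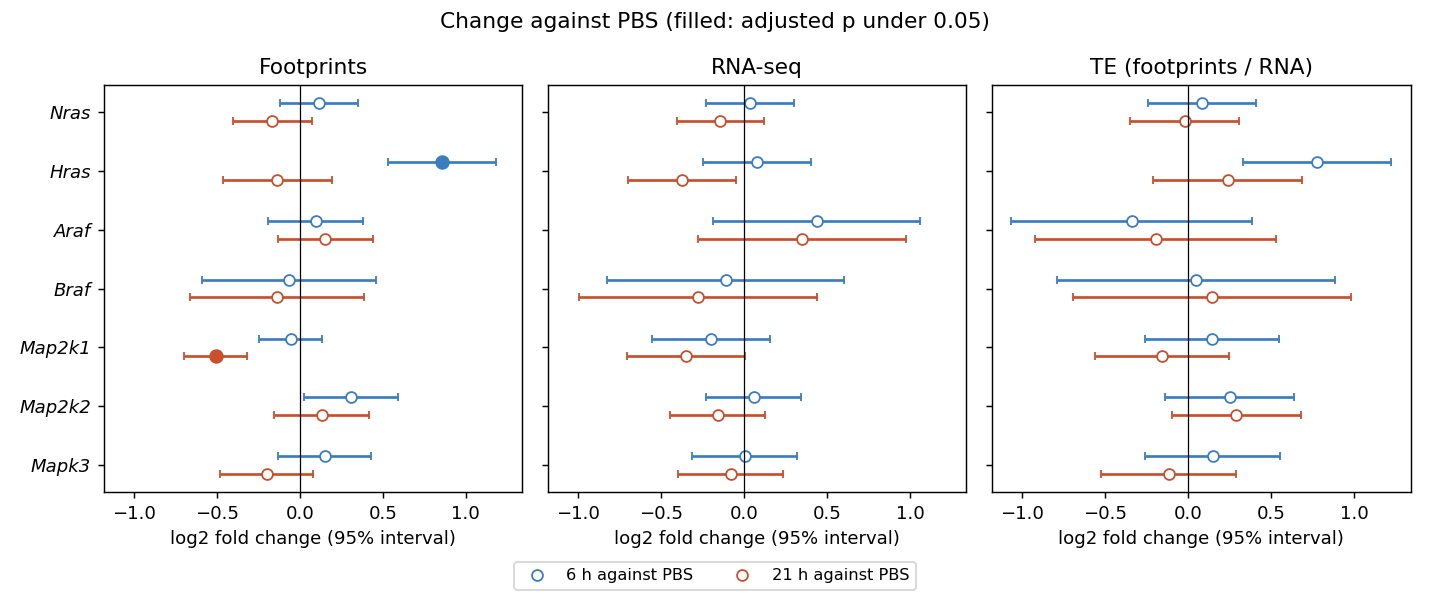
Change against PBS on the log2(RPKM + 0.5) scale for each cascade gene in footprints, RNA and TE at 6 h and 21 h, with 95% intervals from limma; filled points have an adjusted p under 0.05. Hras at 6 h (0.86) and Map2k1 at 21 h (-0.51), both in footprints, are the filled points.

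Ratios between members of the same step, taken within a library, do not depend on how libraries are scaled. The footprint ratio of Hras to Nras was 0.746 and 0.898 with PBS, 1.43 and 1.32 at 6 h, and 0.793 and 0.882 at 21 h. The RAS pair thus exchanged order at 6 h and returned at 21 h, while the RNA ratio stayed between 0.501 and 0.668 in all 6 libraries. For the MEK pair, the footprint ratio of Map2k2 to Map2k1 was 0.532 and 0.467 with PBS, 0.698 and 0.591 at 6 h, and 0.707 and 0.855 at 21 h. Every treated library was above both PBS libraries, so Map2k2 made up more of the MEK footprints in each treated library. The RNA ratio of this pair ran from 0.722 to 1.02 with overlapping groups. For the RAF pair, the ratio of Braf to Araf ran from 0.173 to 0.274 in footprints and from 0.172 to 0.514 in RNA, also overlapping. These ratios are given without a test, since the smallest two-sided p that an exact permutation test of 2 libraries against 2 allows is 0.333.

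**Figure D4:**
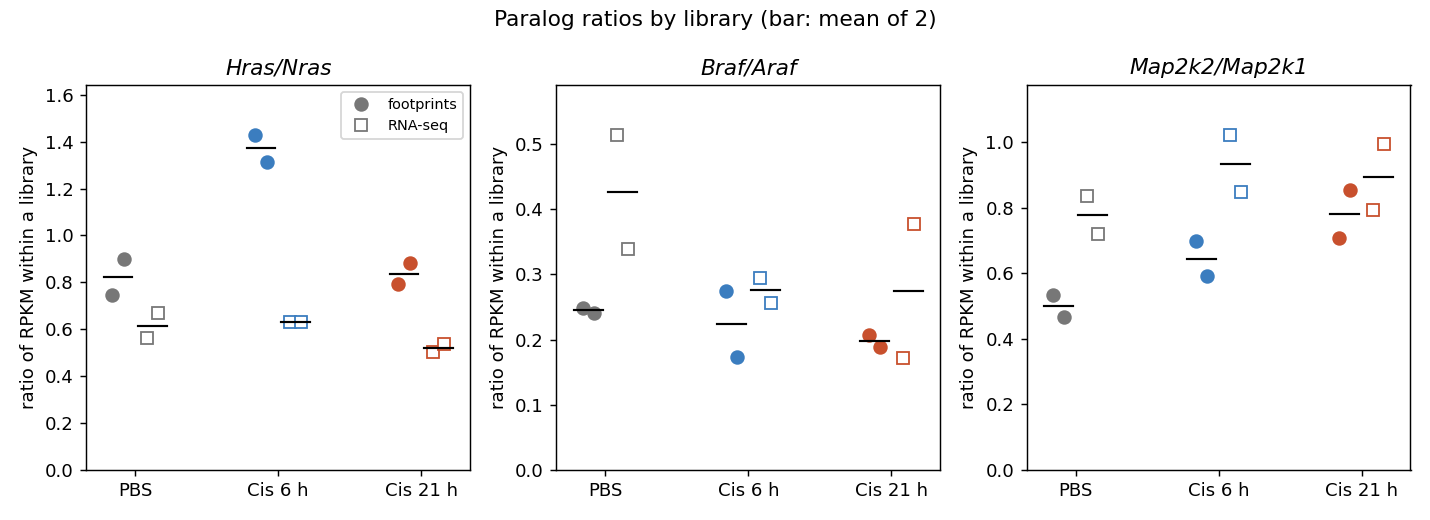
Ratio of RPKM between members of the same step (Hras to Nras, Braf to Araf, Map2k2 to Map2k1) in each library, for footprints and RNA, by group. The Hras to Nras footprint ratio is above 1 only at 6 h (1.43 and 1.32), and the Map2k2 to Map2k1 footprint ratio is highest at 21 h (0.707 and 0.855).

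Beyond the cascade itself, 109 genes around it were listed by role, and their footprints moved in both directions at 21 h. The list was written with earlier results of these data known, so its shares against all mRNAs are descriptions only. Of 99 with enough footprints to test, 17 rose and 29 fell, or 46.5% against 39.1% of all mRNAs, with a median change of -0.09 against 0.01 over all. Without PBS replicate 2 the number that fell was 19. At 6 h 3 rose and 0 fell by limma, or 3.03% against 2.04% of all mRNAs. An unadjusted p under 0.05 was found for 27 of the 99 and for 2217 of all 10383, and voom called 15 and 1276. The 3 were Dusp1 (1.05), Ier3 (0.64) and Mknk2 (0.73), the last an ERK-activated kinase named after its value was seen. The number of listed genes that rose at 6 h was 0 without 6 h replicate 1, without 6 h replicate 2 or without the trend, and 1 without PBS replicate 1 or without PBS replicate 2. In RNA at 21 h 14 rose and 19 fell of 97 tested, or 34.0% against 23.8% of all mRNAs. These became 9 and 11 without PBS replicate 2, and the number that fell was 10 without PBS replicate 1. For TE 0 of 97 were called at 21 h by limma, against 38 of all 9295 mRNAs. An unadjusted p under 0.05 was found for 7 of the 97 and for 1183 of all 9295, and voom called 1 and 209.

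Among upstream adaptors and exchange factors, 2 of 10 tested rose and 3 fell in footprints at 21 h, against 39.1% of all mRNAs called in either direction and 20.2% called lower, which is the background for each role given here. Shc1, an adaptor that couples receptors to GRB2, rose from 54.2 ± 3.39 to 86.2 ± 7.26 RPKM (SD, n = 2, log2 change 0.63), and Crkl, another adaptor, rose by 0.45. Sos2, an exchange factor that loads RAS with GTP, fell from 8.92 ± 0.0496 to 3.75 ± 0.842 RPKM (SD, n = 2, log2 change -1.20). Rapgef1, an exchange factor for RAP1, fell from 6.69 ± 0.950 to 2.70 ± 0.479 RPKM (SD, n = 2). Of 9 genes for RAS processing and membrane delivery, 1 rose and 1 fell, or 22.2% called against 39.1% of all mRNAs. Icmt, the methyltransferase that finishes the RAS tail, rose by 0.50, and Fntb, the farnesyltransferase beta subunit, fell by 0.80. Icmt lost its call without PBS replicate 1, PBS replicate 2 or 21 h replicate 1 (adjusted p = 0.0800, 0.0692 and 0.0967), and Fntb without either PBS library (adjusted p = 0.0601 and 0.0713).

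Among the brakes on RAS, 1 of 13 tested rose and 5 fell in footprints at 21 h, or 46.2% called against 39.1% of all mRNAs. Nf1, which encodes the RAS GTPase-activating protein neurofibromin, fell from 8.45 ± 0.268 RPKM with PBS to 3.30 ± 0.105 at 21 h (SD, n = 2, log2 change -1.27, adjusted p = 0.00143), and its RNA fell by 0.97 (adjusted p = 0.00878). Spred2, which helps to bring neurofibromin to RAS, fell by 1.04 and Rasa3, another GTPase-activating protein, by 0.98. Spry4, a Sprouty inhibitor that ERK signaling itself induces, rose from 2.70 ± 0.108 to 10.7 ± 0.626 RPKM (SD, n = 2, log2 change 1.77, adjusted p = 0.000495), from 11 to 13 reads with PBS and 34 to 35 at 21 h.

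Other RAS family GTPases fell in 5 of 7 tested and rose in 0 at 21 h in footprints, where 20.2% of all mRNAs fell. Rala, a GTPase activated downstream of RAS, fell from 82.2 ± 9.88 to 45.4 ± 4.64 RPKM (SD, n = 2, log2 change -0.88, adjusted p = 0.000922). Rap1a fell by 0.47, Rheb, the GTPase that activates mTORC1, by 0.46, and Rap1b by 0.41. Without the trend Rheb and Rap1a did not pass (adjusted p = 0.0508 and 0.0610, limma). The call of Rap1a was lost without PBS replicate 2 or 21 h replicate 2 (adjusted p = 0.0739 and 0.0801). In RNA at 21 h 2 of the 7 fell, where 1152 of all 9443 mRNAs fell. The 2 were Rap1a (-0.75) and Ralb, the latter named after its value was seen. Rheb RNA was at 28.03 ± 3.25 RPKM with PBS and 32.4 ± 3.55 at 21 h (SD, n = 2). The TE change of Rheb at 21 h was -0.58 (SE 0.16, unadjusted p = 0.0039), with an adjusted p of 0.160.

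Scaffolds and RAF regulators rose in 2 and fell in 5 of 16 tested, or 43.8% called against 39.1% of all mRNAs. Shoc2, which activates RAF together with protein phosphatase 1, fell from 35.7 ± 2.23 to 20.9 ± 2.04 RPKM in footprints (SD, n = 2, log2 change -0.80, adjusted p = 0.00161), and Arrb1 fell by 0.99 while Arrb2, its paralog, rose by 0.66. Pea15a, which holds ERK in the cytoplasm, rose by 0.61.

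The phosphatases that switch off ERK and related kinases included Dusp1, which had the largest rise of the listed genes in footprints at 21 h. In footprints at 21 h 3 of 7 tested rose and 0 fell, or 42.9% called against 39.1% of all mRNAs, with a median change of 0.60 against 0.01 over all mRNAs. Dusp1, a nuclear phosphatase of MAP kinases, was at 42.3 ± 4.72 RPKM with PBS, 89.0 ± 5.58 at 6 h and 440 ± 12.3 at 21 h (SD, n = 2 each), a log2 change of 3.33 at 21 h (SE 0.11, adjusted p = 1.11e-06). Dusp6, which acts on ERK in the cytoplasm, rose from 69.3 ± 7.27 to 237 ± 21.1 RPKM at 21 h (SD, n = 2, log2 change 1.73), and Dusp4 rose by 1.19. The RNA of the 3 also rose at 21 h, by 3.62, 1.05 and 1.11 in the same order.

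Substrates and transcriptional outputs of ERK split, with 5 rising and 6 falling of 18 tested in footprints at 21 h, or 61.1% called against 39.1% of all mRNAs. Egr1, an immediate early transcription factor, rose from 12.0 ± 4.34 to 82.6 ± 4.37 RPKM (SD, n = 2, log2 change 2.75), Ier3, an immediate early gene, from 94.5 ± 2.80 to 399 ± 9.04 (SD, n = 2, log2 change 2.03), and Phlda1 by 0.90. Ets2 and Fosl1 were the other 2 that rose, named after their values were seen. Rps6ka2, an ERK-activated kinase, fell by 1.10 on 9 and 18 reads at 21 h, and its call was lost without PBS replicate 1, PBS replicate 2 or 21 h replicate 1 (adjusted p = 0.0810, 0.202 and 0.178). Rps6ka2 also did not pass without the filter or without the trend (adjusted p = 0.0746 and 0.0555, limma). With quantile normalization and with a replicate block its adjusted p was 0.0934 and 0.0504 (limma). Ccnd1, Elk3, Ets1, Etv5 and Rps6ka3 were the other 5 that fell, likewise named after the fact. Many of these outputs respond to other pathways as well.

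Of 9 other RAS effectors tested, 2 rose and 2 fell in footprints at 21 h, or 44.4% called against 39.1% of all mRNAs. Rassf1 rose from 12.8 ± 0.997 to 44.4 ± 0.357 RPKM in footprints (SD, n = 2, log2 change 1.72), and Rgl1, an exchange factor for RAL, fell by 1.06. Rin1 rose by 0.52, a call lost without either PBS library or either 21 h library (adjusted p = 0.0771 to 0.156). Rin1 also did not pass without the filter, without the trend or with a replicate block (adjusted p = 0.0808, 0.0530 and 0.0659, limma). Plce1, a phospholipase C that binds RAS, fell from 85 and 83 footprint reads with PBS to 30 and 22 at 6 h and 2 and 3 at 21 h. Relative to the reads of the libraries, the 21 h level was 0.0409 of the PBS level, with an exact 95% interval of 0.0131 to 0.0973 that covers counting error only. Among 10 kinases of parallel MAP kinase pathways, 1 rose and 2 fell in footprints at 21 h, or 30% called against 39.1% of all mRNAs. Map2k6 fell by 0.91 and Map2k4 by 0.67, and Map2k7 rose by 0.47. Map2k7 did not pass without the filter, without the trend or with a replicate block (adjusted p = 0.0551, 0.0508 and 0.0542, limma). Map2k4 lost its call without PBS replicate 2 (adjusted p = 0.0504), and Map2k7 without either PBS library or either 21 h library (adjusted p = 0.0545 to 0.184).

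**Figure D5:**
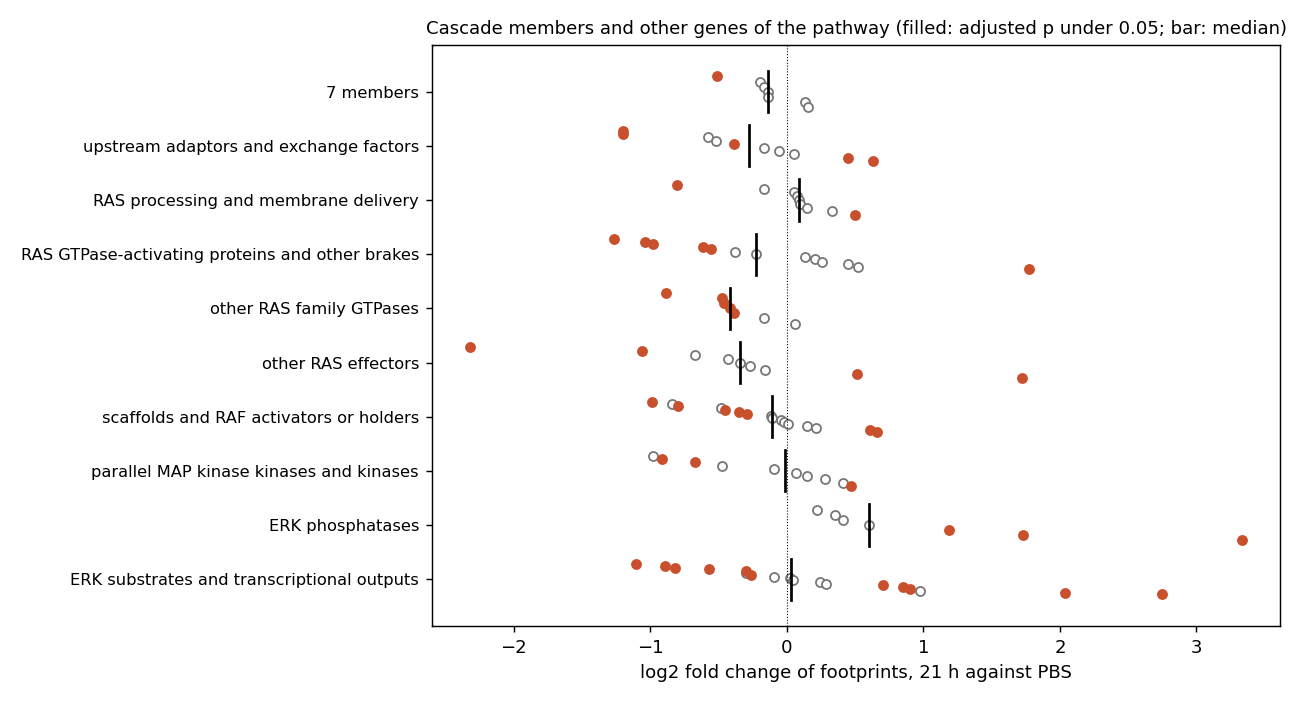
Change in footprints at 21 h against PBS on the log2(RPKM + 0.5) scale for each listed gene that was tested, by role, with the cascade genes for comparison; filled points have an adjusted p under 0.05. The phosphatases extend furthest to the right (Dusp1 at 3.33), and the cascade genes lie between -0.51 and 0.15.

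The mRNAs whose levels ran most closely with each cascade gene over the 12 libraries, each assay centred on its own mean, came from 9294 candidates. Pearson's r was 0.97 for Map2k1 with Rnf128, 0.95 for Hras with Rab21, 0.93 for Nras with Ube2q2 and 0.93 for Mapk3 with Zdhhc12. It was 0.89 for Araf with Mapk14, 0.87 for Map2k2 with Dynll1 and 0.86 for Braf with Dcaf8. These are the highest of many values over libraries that share groups and depth, and they are given as descriptions only.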

How the data were processed

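Ribosome profiling and RNA-seq libraries of KPC cells were grouped by their labels. The authors deposited RPKM for each library without pooling, with 1 transcript standing for each gene and with the coding sequence (footprints) or the whole transcript (RNA-seq) as its length. The submitters' processing notes name cutadapt, STAR and the GRCm39 build, with versions not given in the sources used here. A transcript missing from a file was taken as 0. The RPKM kept whole reads, recovered to within 0.01 of a whole number for 100% of the values, which gave the reads and depth quoted, and these cover counting error only.

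Libraries of an assay were brought to 1 scale by median-of-ratios factors, transcripts whose mean was then at least 1 RPKM were kept (10383 for footprints, 9443 for RNA and 9295 for TE), and the 3 groups of an assay were fitted together on log2(RPKM + 0.5) by limma's lmFit and trended eBayes (limma 3.58.1, R 4.3.3). TE was the interaction of assay and treatment. Two-sided p-values were adjusted over all mRNAs by the Benjamini-Hochberg method, with a threshold of 0.05. Fold changes on this scale understate those of low mRNAs. Means ± SD are of deposited RPKM. Scripts were tested on simulated data. Python 3.11.15 with pandas 2.3.3, numpy 2.4.6 and, for plots, matplotlib 3.10.9 did the remaining steps.

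The members, the 109 genes listed by role and the markers were chosen with earlier results of these data known. Named were the 7 members, the listed genes called in footprints at 21 h (at most the 4 with the largest change in each role) and the mRNA closest to each member over the 12 libraries. Other genes of the cascade are not reported here.

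The settings varied were the pseudocount (0.1 and 1), the filter (none, or a minimum of 5), RPKM as deposited, quantile normalization, no trend, only the groups compared, a replicate block, limma's voom on recovered reads, and each library left out. No genome of the GRCm39 build was used here, so no coordinates are given, and overlapping genes were read from RefSeq on GRCm38.p6 by symbol.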

Additional observations from a re-analysis of the deposited data

Results flagged for a closer look

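The effects of Cis on footprints at 6 h and at 21 h differed for 2 cascade genes, by the direct test of 21 h against 6 h (limma, adjusted over all mRNAs). Hras was at 214 and 166 RPKM at 6 h and 93.3 and 98.5 RPKM at 21 h, a difference of -0.99 on the log2 scale (adjusted p = 0.00173), with both 21 h libraries below both 6 h libraries. Map2k1 was at 149 and 151 RPKM at 6 h and 114 and 108 RPKM at 21 h, a difference of -0.45 (adjusted p = 0.00483), again with both 21 h libraries lower. Since 30.7% of all mRNAs differed in this test, such a difference was common.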

How the results depend on the processing

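The Map2k1 fall in footprints at 21 h, and the falls of Hras and Map2k1 between 6 h and 21 h, kept their direction and side of the threshold under all 10 alternatives and without each library. The single call at 6 h (Hras) became 0 without the filter, without the trend and with the replicate block (adjusted p = 0.0810, 0.110 and 0.0571), and leaving out single libraries gave 0 to 1. Footprint calls between 6 h and 21 h (2) became 3 with quantile normalization, where Nras passed (adjusted p = 0.0347) and 3004 of 10390 mRNAs were called. RNA calls of 0 became 1 with quantile normalization (Hras between 6 h and 21 h) and with voom (Map2k1 at 21 h, Hras between 6 h and 21 h). Over all mRNAs, voom called 3004 of 9443 in RNA at 21 h and 2012 between 6 h and 21 h. Quantile normalization called 1256 of 9460 in RNA between 6 h and 21 h. The labels do not say whether libraries with equal replicate numbers share an origin. The correlation of their deviations from the group means was -0.03 to 0.03. That value cannot settle the origin, since such deviations can arise in preparing and counting each library. The replicate block changed no other count of called cascade genes. The cause of these differences was not tested. Of the 32 named genes around the cascade, 24 kept their call in footprints at 21 h in every setting that tested them (Plce1 and Rapgef1 were tested in 9 of the 10 alternatives) and 8 lost it in at least 1 (Fntb, Icmt, Map2k4, Map2k7, Rap1a, Rheb, Rin1 and Rps6ka2).

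Over all mRNAs, calls in footprints at 6 h (212) ranged from 0 without the trend through 17 without the filter and 37 with the replicate block to 344 with a minimum of 5, 442 with only the groups compared and 1276 with voom. TE calls at 21 h (38) were 0 with the block or without the trend, 8 without the filter, 3 with only the groups compared, 67 with a minimum of 5 and 209 with voom, and those between 6 h and 21 h (94) were 0, 54, 49, 113 and 232, or 4 without the trend and 154 on RPKM as deposited. RNA calls between 6 h and 21 h (1486) were 916 without the filter and 790 without the trend. Voom called 229 for RNA and 28 for TE at 6 h, against 0 for each. On RPKM as deposited the median RNA change between 6 h and 21 h moved from 0.01 to 0.15, and the calls split 1234 higher and 514 lower, against 711 and 775. RNA at 21 h split 1367 and 966, against 1093 and 1152, and TE between 6 h and 21 h split 42 and 112, against 55 and 39.

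Leaving out single libraries also moved these totals. Footprint calls at 6 h were 17 and 30 without PBS replicates 1 and 2, 6 and 0 without 6 h replicates 1 and 2, and 381 and 380 without 21 h replicates 1 and 2. Footprint calls between 6 h and 21 h (3189) were 1762 and 1597 without 6 h replicates 1 and 2. RNA calls at 21 h (2245) were 1083 and 1126 without PBS replicates 1 and 2 and 1477 and 1311 without 21 h replicates 1 and 2, and those between 6 h and 21 h were 837 and 819 without the 6 h and 836 and 669 without the 21 h replicates. TE calls ranged from 2 (without RNA 21 h replicate 2) to 42 at 21 h and from 17 (without either 6 h footprint library) to 82 between 6 h and 21 h.

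Signs of cascade genes turned only for changes called neither in the reported fit nor in the other setting, 48 times in all and by at most 0.35 from 0. On RPKM as deposited, the RNA change at 6 h was -0.032 for Nras, -0.010 for Map2k2 and -0.064 for Mapk3, the RNA change at 21 h was 0.00059 for Mapk3, that between 6 h and 21 h was 0.055 for Araf and 0.065 for Mapk3, and the TE change between 6 h and 21 h was -0.0058 for Braf and -0.089 for Map2k2. With quantile normalization the Braf footprint change was 0.037 at 21 h and 0.040 between 6 h and 21 h, and the Mapk3 RNA change at 6 h was -0.029. Leaving out single libraries gave ranges that crossed 0. Footprints at 6 h gave -0.010 to 0.24 for Nras and -0.30 to 0.17 for Braf. Footprints at 21 h gave -0.29 to 0.017 for Hras. Footprints between 6 h and 21 h gave -0.0085 to 0.13 for Araf and -0.31 to 0.17 for Braf. RNA at 6 h gave -0.036 to 0.20 for Hras, -0.43 to 0.21 for Braf, -0.12 to 0.12 for Mapk3, -0.40 to 0.0026 for Map2k1, -0.0040 to 0.075 for Nras and -0.012 to 0.13 for Map2k2. RNA at 21 h gave -0.60 to 0.039 for Braf and -0.089 to 0.79 for Araf. RNA between 6 h and 21 h gave -0.53 to 0.35 for Araf, -0.37 to 0.035 for Braf, -0.20 to 0.034 for Mapk3 and -0.35 to 0.051 for Map2k1. TE at 6 h gave -0.046 to 0.21 for Nras, -0.27 to 0.37 for Braf and -0.059 to 0.34 for Map2k1. TE at 21 h gave -0.069 to 0.024 for Nras, -0.18 to 0.46 for Braf and -0.63 to 0.24 for Araf. TE between 6 h and 21 h gave -0.23 to 0.023 for Nras, -0.14 to 0.34 for Braf, -0.069 to 0.15 for Map2k2 and -0.29 to 0.58 for Araf.

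With 2 libraries a group and 27 to 70 reads a library for Araf RNA and for Braf, changes in these genes could only be detected if large.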
